A study of Mus musculus with 36 samples.

Results

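Blood endothelial genes of the mouse lung were followed after NNK, a tobacco-specific nitrosamine that is activated to DNA-damaging products in lung cells. The set holds 10 genes: the apelin receptor Aplnr and its ligand Apln, the endothelin receptor Ednrb, the Tie receptors Tek and Tie1, the VEGF receptors Kdr and Flt1, the junction proteins Pecam1 and Cdh5, and the carbonic anhydrase Car4. They were taken by symbol from the array platform's annotation, 10 of 19938 genes with a probe set of their own. All 10 lay among the 14953 genes that passed the filter on dim signal and were tested. Whole-lung RNA was hybridised to 36 Affymetrix Mouse Gene 1.0 ST arrays. NNK-treated A/J and C3H mice had received 4 weekly injections of 100 mg/kg, and lungs were taken at weeks 3, 6, 9 and 12. Untreated A/J and C3H lungs were taken at weeks 0, 3, 6, 9 and 12. That made 18 groups with 2 arrays in each, and per the series' design text the lungs were taken before tumours matured. Age and sex are not given in the sources used here.

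Blood capillaries cover most of the alveolar surface, and their endothelial cells are of at least a pair of kinds in the mouse lung. Alveolar aerocytes (aCap) lie against the gas-exchange surface and carry Car4, Ednrb, Apln and high Kdr, and general capillary cells (gCap), which can renew the capillary bed, carry Aplnr and Tek. VEGF from the epithelium acts through Kdr, with Flt1 as a high-affinity decoy for it, and angiopoietins act through Tek with Tie1 as co-receptor to keep vessels stable. Cdh5 (VE-cadherin) and Pecam1 (CD31) join endothelial cells of all blood vessels to each other.

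Levels are given as log2(intensity + 16) after quantile normalization, and every change is a difference of such levels, NNK minus untreated or A/J minus C3H. Errors of levels are SDs over arrays and errors of changes are standard errors of a limma fit, whose p-values were adjusted over all 14953 genes with the Benjamini-Hochberg method and called at 0.05. The labels leave unsaid whether both arrays of a group stand for separate animals, so a p-value reflects the spread among these samples alone, and that spread may be technical. In bulk lung RNA, fewer endothelial cells and less RNA per cell cannot be told apart. The labelled tissue was checked with 11 alveolar type 2 markers, whose mean level lay between 12.48 and 12.84 in all arrays. All 10 endothelial genes were bright. Their mean levels over all arrays lay between 10.62 for Apln and 13.22 for Cdh5, at the 85.9th and 99.8th percentiles of all genes by mean level. Levels of different genes come from different probe sets and are not compared with each other. Skin genes were high in both untreated A/J arrays of week 6 (the cornified-envelope gene Lor at 12.74 and 13.59 and the keratin gene Krt1 at 14.37 and 14.77). In untreated A/J array 2 of week 0 Lor was also high, at 13.65, against at most 7.40 elsewhere, but Krt1 was not, at 9.27 against 9.39 in array 1. Acute-phase genes were high in both NNK-treated C3H arrays of week 3. The A/J changes called with NNK are also given without week 6 and that week 0 array, and the C3H changes of the 10 genes without week 3. Wherever week 6 is left out, that week 0 array is left out too.

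Promoter sequences of 7 of the 10 genes were found in a RefSeq table of build GRCm38.p6. The 250 bases before the transcription start are shown for the 3 that fell with NNK in A/J lungs and had an entry, Ednrb at chr14:103843702-103843951 on the minus strand, Tek at chr4:94739039-94739288 on the plus strand and Tie1 at chr4:118489850-118490099 on the minus strand. Each runs 5′ to 3′ along its gene, and capitals mark GGAA or its reverse complement TTCC, the core of ETS transcription factor motifs, to which endothelial regulators such as ERG bind.
Ednrb: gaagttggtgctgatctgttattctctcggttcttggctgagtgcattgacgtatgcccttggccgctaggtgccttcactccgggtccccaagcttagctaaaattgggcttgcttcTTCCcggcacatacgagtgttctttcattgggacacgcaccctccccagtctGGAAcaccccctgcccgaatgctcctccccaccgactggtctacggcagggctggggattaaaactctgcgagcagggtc
Tek: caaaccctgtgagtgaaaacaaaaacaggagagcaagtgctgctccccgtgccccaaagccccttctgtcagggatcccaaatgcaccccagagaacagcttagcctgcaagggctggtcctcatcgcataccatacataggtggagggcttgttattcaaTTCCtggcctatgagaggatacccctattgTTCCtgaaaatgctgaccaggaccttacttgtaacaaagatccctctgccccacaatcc
Tie1: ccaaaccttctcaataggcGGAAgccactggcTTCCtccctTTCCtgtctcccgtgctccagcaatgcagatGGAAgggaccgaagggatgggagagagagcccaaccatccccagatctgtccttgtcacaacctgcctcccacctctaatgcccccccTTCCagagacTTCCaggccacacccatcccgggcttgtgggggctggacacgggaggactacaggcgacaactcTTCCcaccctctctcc
GGAA, searched on both strands, occurred 7 times in the Tie1 window, and 3.82% of 32851 promoters of the same length held 7 or more. Tie1 had the highest count of the 7 windows, and this share is for a single promoter, not for the highest of 7. The Ednrb and Tek windows held 2 each, that of Apln held 3 and those of Kdr, Flt1 and Car4 held 4 each, where 93.4% of all promoters held at least 1. The hypoxia element core ACGTG was in 0 of the 7 windows and in 16.6% of all promoters, and the TATA box TATAAA was in that of Flt1 alone and in 12.4% of all. These matches describe letters and are not binding sites.

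With NNK, 4 of the 10 genes fell in A/J lungs on the mean of 4 weeks, where 2.60% of all tested genes were called lower (389 of the 1502 called). They were Aplnr, Ednrb, Tek and Tie1, with falls between 0.16 and 0.28 on the log2 scale, and 0 rose. The 10 genes were chosen with earlier results of these data known, so the count is a description and not a test of the set. In sign, 9 of 10 changes lay below 0, all but that of Apln, where 43.3% of all genes did. The median change of the 10 was -0.07, against 0.01 over all genes tested. With arrays centred on their medians in place of quantile normalization, 0 of the 10 were called and 6 lay below 0. In that scaling 200 of all tested genes were called lower. The share of falls among all called genes was 13.9% there, against 25.9% with quantile normalization. Without week 6, whose untreated A/J arrays held the skin genes, and 1 untreated array of week 0, 0 of the 10 were called. In that setting 104 of all tested genes were called lower, and 8 of the 10 changes lay below 0, at a median of -0.07.

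**Figure D1:**
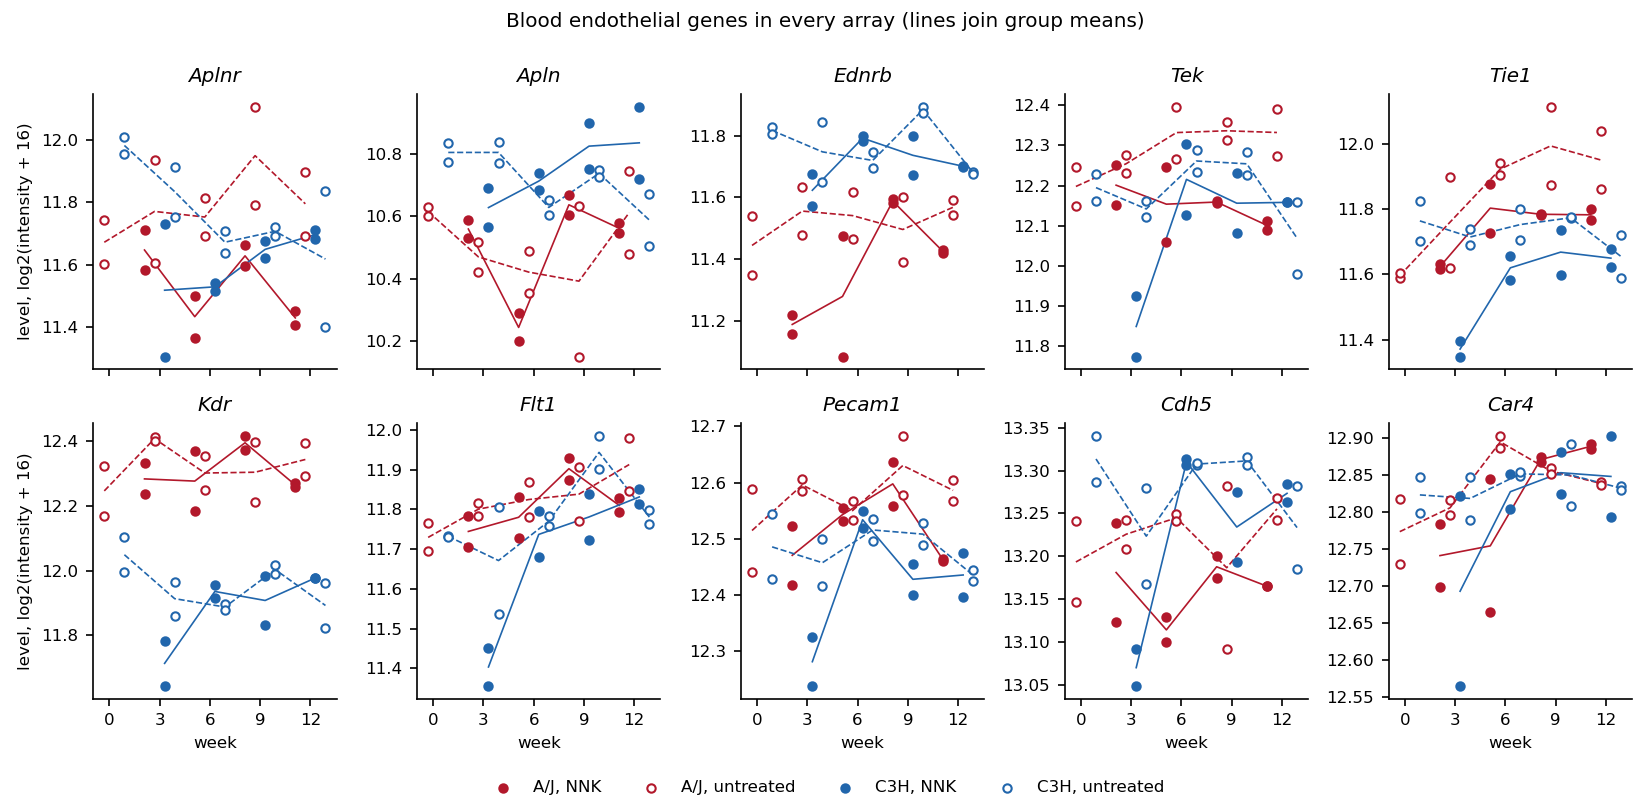
Level of each gene as log2(intensity + 16) (vertical axis, scaled per gene) in every array by week (horizontal axis), with points for arrays and lines through group means. Filled points are NNK-treated lungs and open points untreated lungs, in red for A/J and blue for C3H. In A/J the filled Aplnr and Tek points lie below the open ones from week 6 on, and in C3H the filled points of week 3 are low for most genes.

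Aplnr, the G protein-coupled receptor for apelin, had the largest change of the 10. In NNK-treated A/J lungs it stood at 11.58 and 11.71 at week 3, 11.37 and 11.50 at week 6, 11.66 and 11.60 at week 9, and 11.41 and 11.45 at week 12. Untreated A/J lungs of the same weeks had 11.61 and 11.93, 11.69 and 11.81, 11.79 and 12.11, and 11.90 and 11.69. Both NNK arrays lay below both untreated arrays at weeks 6, 9 and 12, and the pairs overlapped at week 3. Of the 10 genes, 6 were so placed at week 6, 3 at week 9 and 8 at week 12. Those of week 12 included Kdr, Flt1, Pecam1 and Cdh5, which were not called on the mean of 4 weeks. The share of all genes so placed is not given for A/J, so these counts cannot be set against genes at large. In another strain and week, C3H at week 3, it was 30.1%. The mean Aplnr level was 11.54 ± 0.12 in NNK-treated and 11.82 ± 0.16 in untreated A/J lungs (SD, n = 8 each), a change of -0.28 ± 0.07 (SE, adjusted p = 0.0102), and the value of intensity + 16 fell by 17.8%. Apln, the ligand, was at 10.50 ± 0.17 in NNK-treated and 10.47 ± 0.18 in untreated A/J lungs (SD, n = 8 each) and its change of 0.03 ± 0.06 was not called (adjusted p = 0.794). Its weekly changes had both signs, at 0.09, -0.18, 0.24 and -0.05 from week 3 to week 12, and leaving out untreated array 2 of week 9 or array 1 of week 12 turned its mean change to -0.03 or -0.01.

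Ednrb, the endothelin B receptor, had 11.22 and 11.16 at week 3, 11.09 and 11.47 at week 6, 11.60 and 11.58 at week 9, and 11.43 and 11.42 at week 12 in NNK-treated A/J lungs. The untreated A/J values were 11.48 and 11.63, 11.47 and 11.62, 11.60 and 11.39, and 11.59 and 11.54. Its low values were those of week 3 and of 1 array of week 6, and at week 9 the NNK arrays lay within the untreated range. Ednrb averaged 11.37 ± 0.19 in NNK-treated and 11.54 ± 0.09 in untreated A/J lungs (SD, n = 8 each), a change of -0.17 ± 0.05 (adjusted p = 0.0290). Without week 3 it was -0.10 and not called (adjusted p = 0.208). It was also not called without any 1 of 7 A/J arrays (untreated week 6 array 2 and week 9 array 1, and NNK week 3 array 2, week 6 array 1, week 9 array 2 and both of week 12), with changes between -0.22 and -0.12 over all arrays left out in turn and adjusted p up to 0.0866.

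The angiopoietin receptor Tek and its co-receptor Tie1 were lower by like amounts in NNK-treated A/J lungs than in untreated ones of the same weeks. Tek had 12.15 and 12.25 at week 3, 12.06 and 12.25 at week 6, 12.16 and 12.16 at week 9, and 12.11 and 12.09 at week 12 with NNK, against 12.28 and 12.23, 12.27 and 12.40, 12.36 and 12.31, and 12.39 and 12.27 without it. Both NNK arrays lay below both untreated arrays at weeks 6, 9 and 12. The level was 12.15 ± 0.07 in NNK-treated and 12.31 ± 0.06 in untreated lungs (SD, n = 8 each), a change of -0.16 ± 0.04 (adjusted p = 0.0129). Tie1 had 11.62 and 11.63, 11.88 and 11.73, 11.79 and 11.78, and 11.80 and 11.77 at the 4 weeks with NNK, against 11.62 and 11.90, 11.91 and 11.94, 11.87 and 12.11, and 12.04 and 11.86 in untreated lungs. Here too the arrays separated at weeks 6, 9 and 12. The Tie1 level was 11.75 ± 0.09 in NNK-treated and 11.91 ± 0.15 in untreated lungs (SD, n = 8 each), a change of -0.16 ± 0.04 (adjusted p = 0.0231). Against week 0 Tie1 was not lower: untreated A/J lungs then had 11.59 and 11.60, below all 8 NNK arrays, the lowest at 11.62. Untreated A/J Tie1 rose over the weeks, as given below. Tek at week 0 had 12.25 and 12.15, within the range of the NNK arrays, from 12.06 to 12.25. The Tie1 call was lost without untreated array 2 of week 9, untreated array 1 of week 12 or NNK array 2 of week 12, where its change lay between -0.19 and -0.12 over all arrays left out and the adjusted p reached 0.0568. Of the other called genes, Aplnr and Tek were called whichever of the 36 arrays was left out. Without week 6 and 1 week 0 array the changes were -0.27 for Aplnr (adjusted p = 0.0908), -0.15 for Tek (adjusted p = 0.0560), -0.17 for Tie1 (adjusted p = 0.0928) and -0.14 for Ednrb (adjusted p = 0.102).

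The other A/J changes were not called. At an unadjusted p under 0.05 stood 6 of the 10 genes, the 4 called ones with Pecam1 and Cdh5, and 4007 of all genes. The VEGF receptors Kdr, the main signalling receptor, and Flt1 both changed by -0.03 ± 0.04 (adjusted p = 0.614 and 0.589). Kdr was at 12.31 ± 0.08 in NNK-treated and 12.34 ± 0.08 in untreated A/J lungs, and Flt1 at 11.81 ± 0.07 and 11.84 ± 0.07 with and without NNK (SD, n = 8 each). The junction genes were slightly lower, at -0.07 ± 0.03 for Pecam1 (adjusted p = 0.132) and -0.07 ± 0.03 for Cdh5 (adjusted p = 0.167). Their levels were 12.52 ± 0.07 with NNK against 12.59 ± 0.04 without for Pecam1, and 13.16 ± 0.04 against 13.23 ± 0.06 for Cdh5 (SD, n = 8 each). Car4, which speeds the conversion of bicarbonate to carbon dioxide on the capillary surface, differed by -0.03 ± 0.03 (adjusted p = 0.545). With median centring the changes of Kdr, Flt1 and Car4 turned to 0.03, 0.01 and 0.02. The 95% intervals reached from -0.12 to 0.05 for Kdr and Flt1, from -0.14 to -0.01 for Pecam1, from -0.13 to -0.00205 for Cdh5 and from -0.11 to 0.04 for Car4.

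Week by week in A/J, no weekly comparison called any of the 10 genes, where 0.354% of all genes were called at week 3, 7.27% at week 6, 1.54% at week 9 and 0.0736% at week 12. At an unadjusted p under 0.05 in these limma fits stood 1, 4, 4 and 2 of the 10 genes, and 1909, 3781, 2730 and 1091 of all. Below 0 were 9, 10, 4 and 9 of the 10 changes at weeks 3, 6, 9 and 12, where 43.5%, 41.3%, 41.8% and 53.5% of all genes were. With median centring the week 6 count was 7, and the others were 9, 3 and 9. The median changes of the 10 were -0.09, -0.14, 0.01 and -0.11, against 0.02, 0.03, 0.03 and -0.01 over all genes. Aplnr, Tek, Tie1 and Pecam1 were lower at all 4 weeks, as were 8.30% of all genes. The Aplnr changes were -0.12, -0.32, -0.32 and -0.37 from week 3 to week 12, and those of Tek were -0.05, -0.18, -0.18 and -0.23. Tie1 changed by -0.14, -0.12, -0.21 and -0.17, while Ednrb ran the other way with -0.37, -0.26, 0.09 and -0.14. The lowest weekly adjusted p-values were 0.0959 and 0.0993, both for Ednrb, at weeks 6 and 3. Leaving out 1 array brought a call in a few cases, Apln at 0.49 and Tie1 at -0.33 at week 9 without untreated array 1 of that week, Ednrb at -0.37 at week 3 without either NNK array of week 6, and Ednrb at -0.46 at week 6 without NNK array 2 of week 6. No gene had all 8 NNK arrays below all 8 untreated arrays, which 0.0468% of genes did.

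**Figure D2:**
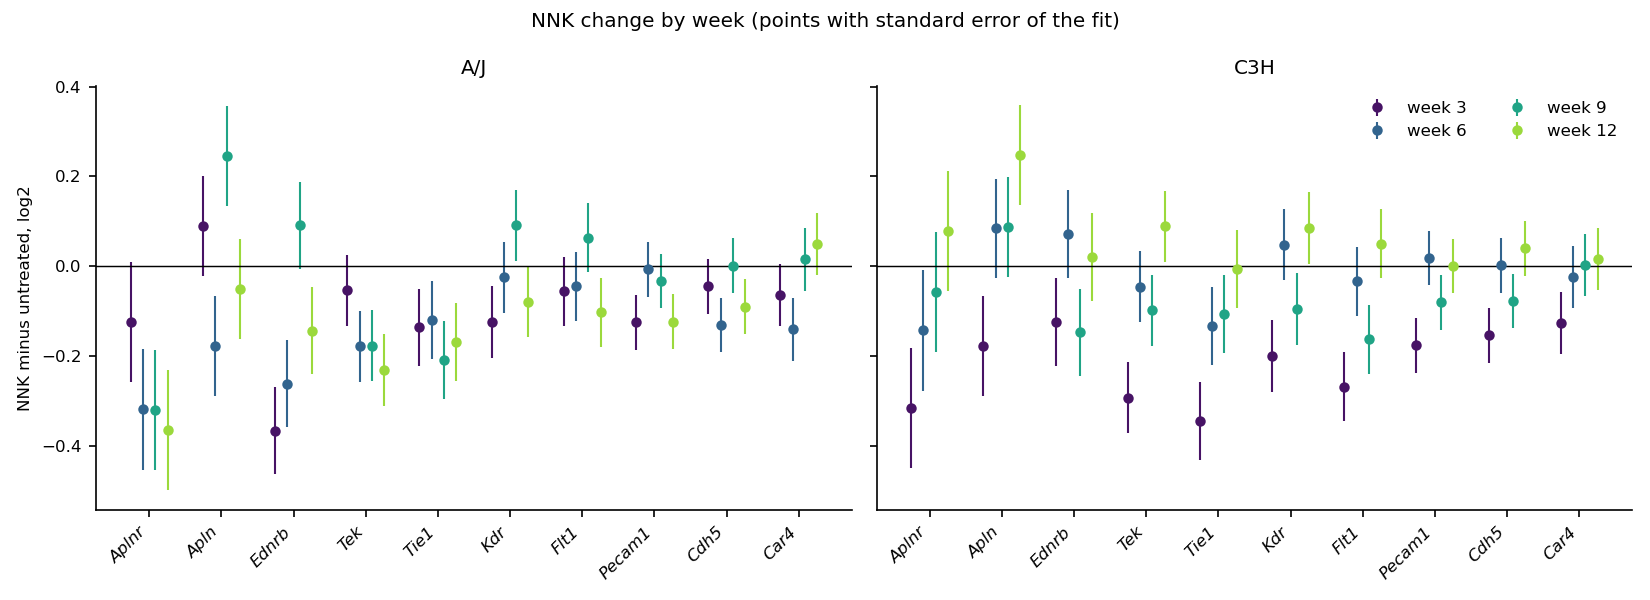
NNK change of each gene (vertical axis, log2, NNK minus untreated) at weeks 3, 6, 9 and 12 for A/J (left) and C3H (right), with bars for the standard error of the fit. Aplnr and Tek lie furthest below 0 at week 12 in A/J, and in C3H the week 3 points lie below those of the other weeks for all genes but Ednrb.

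In C3H lungs NNK called 0 of the 10 genes, where the same limma fit called 0.0803% of all genes. At an unadjusted p under 0.05 stood 936 of all genes and 3 of the 10. These 3 were Tie1 at -0.15 ± 0.04 (adjusted p = 0.438), Flt1 at -0.10 ± 0.04 (adjusted p = 0.640) and Tek at -0.09 ± 0.04 (adjusted p = 0.792). Below 0 were 9 of 10 changes, again all but that of Apln at 0.06, where 54.0% of all genes were below 0. The median of the 10 was -0.05, against -0.01 over all genes. Aplnr differed by -0.11 ± 0.07 (adjusted p = 0.871) and Ednrb by -0.04 ± 0.05 (adjusted p = 0.929).

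In C3H the lowest weekly change was that of week 3 for all genes but Ednrb. All 10 changes were below 0 at that week, at a median of -0.19 against -0.03 over all genes, with 59.0% of all genes below 0. Both NNK arrays lay below both untreated arrays for 8 of the 10, all but Ednrb and Car4, where 30.1% of all genes were so placed. Tie1 had 11.35 and 11.39 with NNK, against 11.69 and 11.74 without. Tek had 11.77 and 11.92 with NNK, against 12.12 and 12.16 without, and Flt1 had 11.36 and 11.45 against 11.54 and 11.81. The changes were -0.34 for Tie1, -0.29 for Tek, -0.27 for Flt1 and -0.32 for Aplnr, 7 of the 10 had an unadjusted p under 0.05, and the adjusted p-values lay between 0.129 and 0.576, so that 0 were called, where 0.0936% of all genes were. Without NNK array 2 of week 3, Tek was called at -0.37 (adjusted p = 0.0381).

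Acute-phase and matrix genes moved in the same arrays. Saa3, an acute-phase protein, stood at 13.33 and 11.76 in the NNK-treated C3H arrays of week 3, against 7.61 and 7.50 in the untreated ones, and Prg4, a lubricating proteoglycan of serosal and joint surfaces, at 12.52 and 9.67 against 6.81 and 6.58. The mean level of 9 fibroblast markers was 12.01 and 11.61 with NNK, against 11.42 and 11.53 without, and that of the 10 endothelial genes was 11.75 and 11.88, against 11.99 and 12.07. Markers of other cells also moved at week 3 in C3H, although 0 of them were called. The 4 mesothelial markers and the 10 proliferation genes all lay above 0, at medians of 0.82 and 0.48. The 11 alveolar type 2, 9 alveolar type 1 and 6 lymphatic markers all lay below 0, at medians of -0.12, -0.08 and -0.12, and 9 of 11 pericyte and smooth-muscle markers did, at -0.17. The part of these genes in the result was not tested. In A/J, Saa3 was at 10.42 and 11.76 in the NNK-treated arrays of week 6, against 8.04 and 7.82 in the untreated ones, where the mean of the 10 genes was 11.90 and 11.97 with NNK and 12.04 and 12.12 without. Saa3 was also at 12.32 in untreated A/J array 2 of week 3, in which the mean of the 10 genes was 12.10. Without NNK array 1, the C3H changes at week 3 were -0.32 for Tie1, -0.22 for Tek and Flt1, -0.10 for Aplnr and 0.00 for Car4. At the later weeks 0 of the 10 were called, where limma called 0.0134% of all genes at week 6 and 0.00% at weeks 9 and 12, and 611, 281 and 182 genes had an unadjusted p under 0.05, with 0, 1 and 1 of the 10 among them. The C3H medians of the 10 genes at weeks 6, 9 and 12 were -0.01, -0.09 and 0.05, and 5, 8 and 1 of the 10 lay below 0, where 46.5%, 52.8% and 45.5% of all genes did. With week 3 left out, the mean C3H changes were -0.08 for Tie1, -0.05 for Flt1, -0.04 for Aplnr, -0.02 for Tek, 0.01 for Kdr and 0.14 for Apln.

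The difference between the strains' NNK changes was called for 0 of the 10 genes in the limma fit, where 1.13% of all genes were called and 2715 had an unadjusted p under 0.05, none of them among the 10. It was -0.17 for Aplnr, A/J minus C3H, with a 95% interval from -0.37 to 0.03 (adjusted p = 0.339), and -0.13 for Ednrb, with an interval from -0.27 to 0.02 (adjusted p = 0.340). For Tek it was -0.07 (interval from -0.19 to 0.04) and for Tie1 -0.01 (interval from -0.14 to 0.12). The A/J calls of these genes are therefore not shown to differ from C3H.

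No linear trend of the NNK change over weeks 3 to 12 was called for the 10 genes in the limma fit, where 0.0334% of all genes were called in A/J and 0.00% in C3H. In A/J 1 of the 10 and 805 of all genes had an unadjusted p under 0.05, and in C3H 5 of the 10 and 793 of all genes. The A/J trends, as the change over 9 weeks, were -0.22 ± 0.18 for Aplnr and -0.16 ± 0.11 for Tek (adjusted p = 0.999 for both). Ednrb had 0.31 ± 0.13 (adjusted p = 0.836). In C3H all 10 trends were above 0, with a median of 0.23 against 0.03 over all genes, and Tek had 0.33 ± 0.11 (adjusted p = 0.781) and Aplnr 0.38 ± 0.18 (adjusted p = 0.939). These trends rest on the same weekly values as above, in which C3H week 3 was low.

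Within NNK-treated lungs, Flt1, the decoy VEGF receptor, rose over the weeks in C3H. It stood at 11.36 and 11.45 at week 3, 11.80 and 11.68 at week 6, 11.72 and 11.84 at week 9, and 11.81 and 11.85 at week 12, a trend of 0.40 ± 0.07 over 9 weeks (adjusted p = 0.0170). It was the 1 called gene of the 10, where 0.401% of all genes were called. Both arrays of week 3 were lower than those of any later week. Without week 3 the trend was 0.09 and not called (adjusted p = 0.561), and the call was also lost without NNK array 1 of week 3 or either NNK array of week 12, where the trend stayed between 0.36 and 0.44 and the adjusted p reached 0.302. Tek, Tie1 and Kdr had trends of 0.26, 0.27 and 0.23 that were not called (adjusted p = 0.115, 0.143 and 0.169). In NNK-treated A/J lungs 0 of the 10 were called by limma, where 3.24% of all genes were called and 2325 had an unadjusted p under 0.05, as had 2 of the 10. Ednrb came nearest, at 0.30 ± 0.09 (adjusted p = 0.0752).

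Of the week trends in untreated lungs, 1 of the 10 was called in A/J, that of Tie1, which rose, where 22.8% of all genes were called. The median A/J trend was 0.07 over the 10 genes and 0.07 over all. Of all called genes 2622 rose and 788 fell, and without normalization between arrays 749 rose and 1096 fell. It had 11.59 and 11.60 at week 0, 11.62 and 11.90 at week 3, 11.91 and 11.94 at week 6, 11.87 and 12.11 at week 9, and 12.04 and 11.86 at week 12. The trend was 0.38 ± 0.08 over 12 weeks (adjusted p = 0.00214), and it was called whichever of the 36 arrays was left out. In untreated C3H lungs Tie1 had 11.70 and 11.83 at week 0 and 11.59 and 11.72 at week 12, with a trend of -0.06 ± 0.08 (adjusted p = 0.803). The difference of the trends, A/J minus C3H, was 0.44 ± 0.11 (adjusted p = 0.0453), the 1 call among the 10 where 1.32% of all genes were called. That call sits at the threshold: it was made in 7 of the 36 fits that left out an array, with a difference between 0.37 and 0.51 and an adjusted p up to 0.195. Without week 6 and 1 week 0 array the difference was 0.45 and not called (adjusted p = 0.138).

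Aplnr ran in the same directions without a call. Untreated A/J lungs had 11.74 and 11.60 at week 0 and 11.90 and 11.69 at week 12, with a trend of 0.17 ± 0.12 (adjusted p = 0.316). Untreated C3H lungs had 11.95 and 12.01 at week 0 and 11.40 and 11.84 at week 12, with a trend of -0.34 ± 0.12 (adjusted p = 0.203), and the trends differed by 0.51 ± 0.17 (adjusted p = 0.120). In untreated C3H lungs limma called 0 of the 10, where 0.863% of all genes were called and 1813 had an unadjusted p under 0.05, as had 2 of the 10, Aplnr and Flt1. Flt1 had trends of 0.16 ± 0.07 in A/J (adjusted p = 0.0894) and 0.15 ± 0.07 in C3H (adjusted p = 0.386), with a difference of 0.01 (95% interval from -0.19 to 0.22).

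The strains themselves differed in 6 of the 10 genes, in NNK-treated and in untreated lungs, where 53.3% and 56.1% of all genes were called, so the count is near that of genes at large. Kdr differed most. It averaged 12.32 ± 0.09 in untreated A/J lungs and 11.95 ± 0.08 in untreated C3H lungs (SD, n = 10 each), and the lowest A/J array, at 12.17, lay above the highest C3H array, at 12.10. The difference was 0.42 ± 0.04 in NNK-treated lungs (adjusted p = 9.81e-09) and 0.37 ± 0.04 in untreated lungs (adjusted p = 8.55e-09). Ednrb went the other way, at -0.34 ± 0.05 in NNK-treated lungs (adjusted p = 3.6e-06) and -0.25 ± 0.04 in untreated lungs (adjusted p = 4.23e-05), where it averaged 11.52 ± 0.10 in A/J and 11.77 ± 0.09 in C3H (SD, n = 10 each). Apln was also lower in A/J, at -0.25 ± 0.06 in NNK-treated (adjusted p = 0.000636) and -0.21 ± 0.05 in untreated lungs (adjusted p = 0.00098). Of the aCap genes, Kdr was higher and Ednrb and Apln lower in A/J, and Car4 differed by 0.00 in untreated lungs, with an interval from -0.07 to 0.06. Tie1 was higher in A/J by 0.17 in NNK-treated and 0.11 in untreated lungs (adjusted p = 0.00208 and 0.0168), and Pecam1 by 0.10 in NNK-treated and 0.09 in untreated lungs (adjusted p = 0.00903 and 0.00501). Flt1 was called in NNK-treated lungs, at 0.12 (adjusted p = 0.0105), against 0.04 in untreated lungs (adjusted p = 0.312). Tek stood at 0.06 in NNK-treated lungs (adjusted p = 0.217) and was called in untreated lungs, at 0.11 (adjusted p = 0.0137). Some of these calls were lost in other settings. In NNK-treated lungs those of Flt1 and Pecam1 were lost without week 3 (adjusted p = 0.318 and 0.108). That of Pecam1 was also lost there without normalization, and that of Apln without week 6 (adjusted p = 0.0502). In untreated lungs those of Tie1, Tek and Pecam1 were lost with median centring. Those of Tek and Pecam1 were also lost there without normalization, and that of Tie1 without week 6. The values in untreated lungs include week 0 and those in NNK-treated lungs do not, and the difference between the 2 was tested over weeks 3 to 12 alone, as the difference of the NNK changes. Sequence differences between the strains under the probes were not tested.

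**Figure D3:**
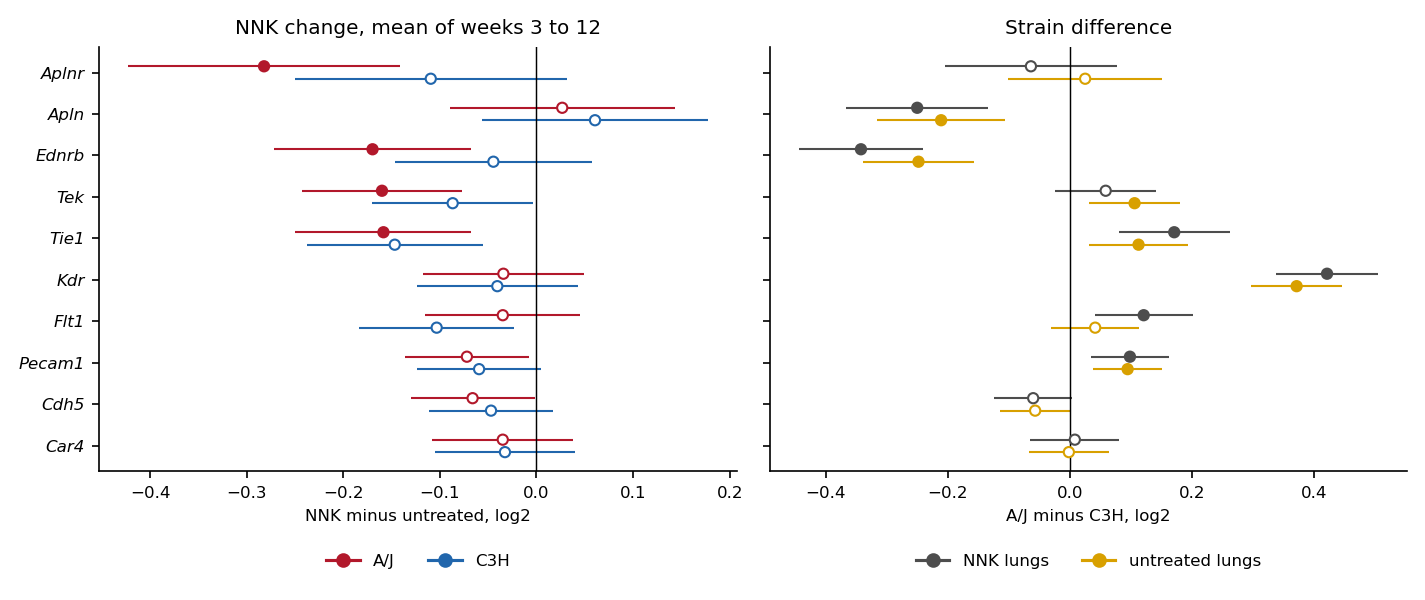
Left, mean NNK change over weeks 3 to 12 (horizontal axis, log2, NNK minus untreated) of each gene in A/J (red) and C3H (blue). Right, difference between strains (horizontal axis, log2, A/J minus C3H) in NNK-treated (grey) and untreated lungs (yellow); bars are 95% intervals of the fit and filled points have an adjusted p under 0.05, which hold for 4 genes in A/J and 0 in C3H at left.

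Other vascular genes were read from lists by role, beside a median A/J change of 0.01 over all genes. Of 10 gCap markers, 4 fell with NNK in A/J lungs and 9 lay below 0, with a median of -0.11. Besides Aplnr and Tek these were Sema3c, a secreted guidance cue, at -0.24 ± 0.05 (adjusted p = 0.00817), and Ptprb, the endothelial phosphatase that acts on Tek, at -0.13 ± 0.04 (adjusted p = 0.0457). With median centring 1 gCap marker, Sema3c, was called lower and 7 lay below 0. Sema3c was also the 1 gCap marker called without week 6 and 1 week 0 array, at -0.23 (adjusted p = 0.0255). Of 10 aCap markers 1 fell, Ednrb, and 9 lay below 0 at a median of -0.03, which turned to 0.01 with median centring. The 2 lists share genes with the 10 and are not independent of them.

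Among 18 junction and surface genes 2 fell in A/J, the C-type lectin Clec14a at -0.12 ± 0.04 (adjusted p = 0.0404) and the secreted endothelial factor Egfl7 at -0.15 ± 0.05 (adjusted p = 0.0428). The tight-junction gene Cldn5 was at -0.17 ± 0.06 (adjusted p = 0.0594). The median of the list was -0.05, and 0.01 with median centring. Neither Clec14a nor Egfl7 was called without normalization (adjusted p = 0.0978 and 0.134), with median centring (0.308 and 0.335) or without week 6 and 1 week 0 array (0.182 and 0.139). Among 12 Notch and arterial genes 1 fell, the arterial ephrin Efnb2, at -0.20 ± 0.04 (adjusted p = 0.00324), and the connexin Gja4 stood at -0.26 ± 0.09 (adjusted p = 0.0552). Efnb2 was called without normalization and without week 6 (adjusted p = 0.0147 and 0.0458), and not with median centring (adjusted p = 0.0552). Of 16 endothelial transcription factors Gata2 fell (-0.18 ± 0.05, adjusted p = 0.0268) and Meox2 rose (0.15 ± 0.04, adjusted p = 0.0275), while Erg was at -0.12 ± 0.04 (adjusted p = 0.0626). The Gata2 call was lost without normalization, with median centring and without week 6 (adjusted p = 0.0510, 0.159 and 0.112), and that of Meox2 without week 6 (adjusted p = 0.191). Of 14 genes of vascular tone and coagulation, the natriuretic peptide clearance receptor Npr3 fell by 0.37 on the log2 scale (adjusted p = 0.00876) and the protein C receptor Procr rose by 0.43 (adjusted p = 0.00211). Npr3 was called in both other scalings and without week 6, at -0.56 (adjusted p = 0.00574), and Procr was not called without week 6 (adjusted p = 0.190). The median of that list was -0.05.

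Other genes of the VEGF, angiopoietin, apelin, endothelin and BMP9 pathways gave 2 calls in A/J. Of 8 VEGF ligands and co-receptors 1 rose in A/J, Vegfd, a ligand of the VEGF family, at 0.19 ± 0.04 (adjusted p = 0.0100), and Vegfa was at -0.08 ± 0.03 (adjusted p = 0.1001). Vegfd was not called without week 6 (adjusted p = 0.122), and Ptprb was not called without normalization, with median centring or without week 6 (adjusted p = 0.126, 0.302 and 0.148). Of 5 angiopoietins and Tie regulators Ptprb alone was called, of 6 other apelin and endothelin genes 0 were (Ece1, which makes active endothelin, at -0.10 ± 0.03, adjusted p = 0.0574), and of 9 genes of the BMP9 and ALK1 pathway 0 were, at a median of -0.00. Of 11 carbonic anhydrases other than Car4, 0 were called in A/J. In C3H the only called gene among all these lists was Mmrn1, a lymphatic marker, which fell by 0.20 (adjusted p = 0.0424) there and rose by 0.14 in A/J (adjusted p = 0.0214), a difference of 0.345 (adjusted p = 0.00358). Without normalization Mmrn1 was called in neither strain (adjusted p = 0.120 in A/J and 0.140 in C3H) and the difference was (adjusted p = 0.0232), and without week 6 none of these Mmrn1 results were called (adjusted p = 0.298 in A/J, 0.125 in C3H and 0.0918 for the difference). All 10 gCap markers and 17 of 18 junction genes lay below 0 in C3H, at medians of -0.08 and -0.05 against -0.01 over all genes.

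Markers of other lung cells moved with the A/J result as well, where 7.44% of all genes were called higher. Of 11 alveolar type 2 markers 5 rose and 0 fell, with a mean level of the list between 12.61 and 12.84 over NNK-treated and between 12.58 and 12.66 over untreated A/J arrays of weeks 3 to 12. Of 8 ciliated-cell markers 6 rose, with list means from 9.56 to 9.89 against 9.38 to 9.69, and of 10 proliferation genes 4 rose, with list means from 8.74 to 10.01 against 8.51 to 9.10. Of 6 neutrophil markers 3 rose, with list means from 8.33 to 9.69 against 7.98 to 8.59, led by lactoferrin, Ltf, at 1.36 ± 0.17 (adjusted p = 1.86e-05). Of 5 club-cell markers 2 rose, Upk3a at 0.37 and Aldh1a7 at 0.16, of 7 macrophage markers Chil3 rose by 0.48, and of 9 fibroblast markers 1 rose, with list means from 11.31 to 11.59 against 11.13 to 11.60. The 5 B-cell markers all lay below 0, at a median of -0.24, and 0 were called. The 9 alveolar type 1, 11 pericyte and smooth-muscle and 6 large-vessel markers gave 0 calls, at medians of -0.05, -0.02 and 0.02, and so did the 5 T and NK cell, 2 red-cell, 6 cardiac-muscle and 4 mesothelial markers, at 0.09, 0.07, -0.15 and -0.12. Of 9 hypoxia genes 1 fell, Angptl4 (-0.39 ± 0.12, adjusted p = 0.0420, and 0.0528 with median centring). The 5 skin genes all fell, at a median of -1.33, with their high values in the untreated arrays of week 6. Without week 6 and 1 week 0 array, 492 of all genes were called in place of 1502. Still called were 3 of the alveolar type 2 markers (Sftpd, Lamp3 and Cxcl15), 4 ciliated-cell markers, Upk3a, Chil3, Ltf and Angptl4, and 0 of the proliferation, fibroblast or skin genes. The part of other cell types in the endothelial changes was not tested.

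**Figure D4:**
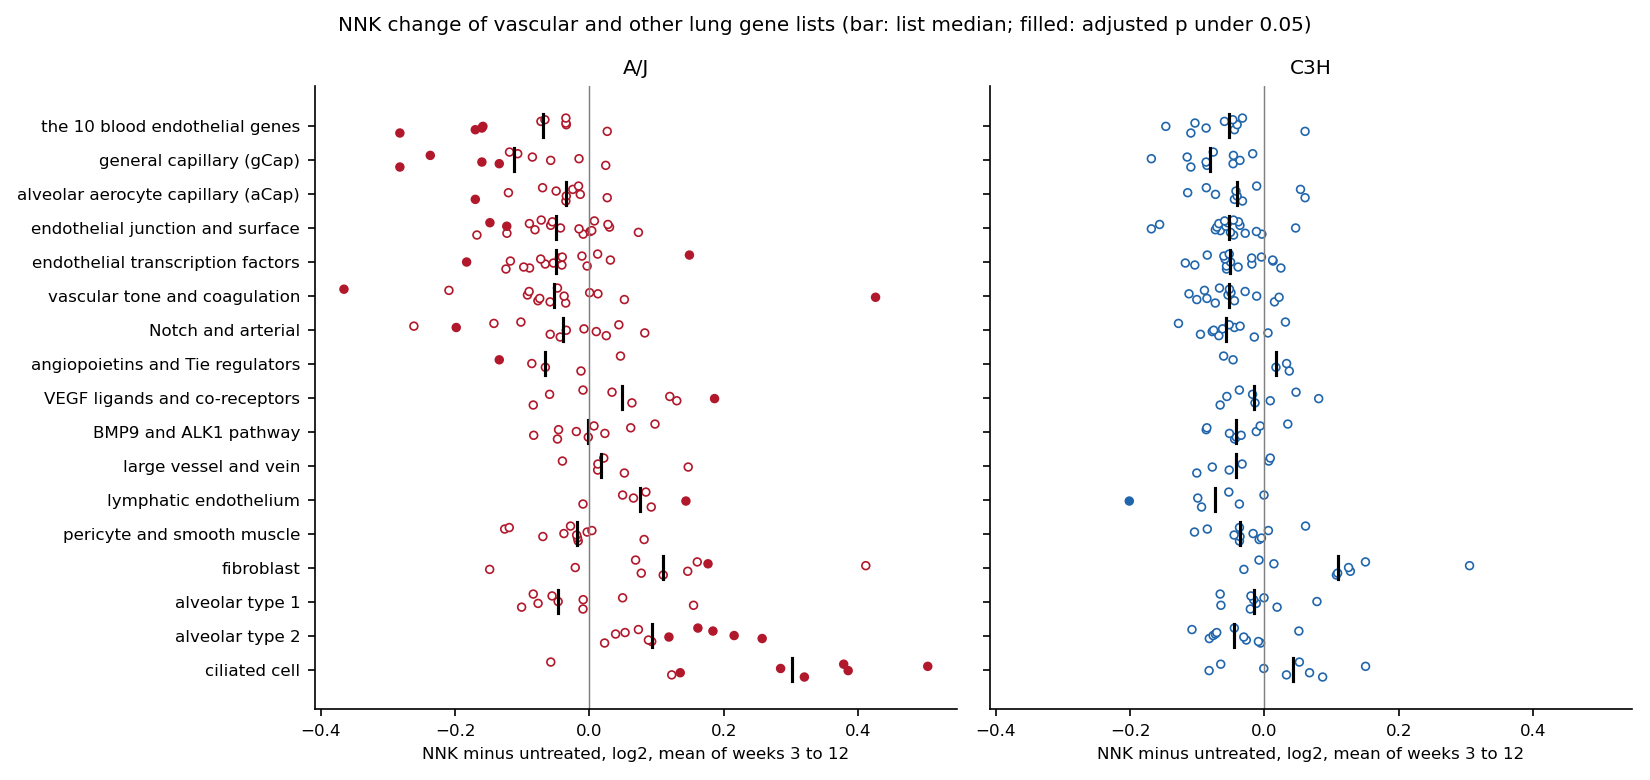
NNK change of single genes (points; horizontal axis, log2, NNK minus untreated, mean of weeks 3 to 12) by list for A/J (left) and C3H (right), with black bars for list medians and filled points for an adjusted p under 0.05. The gCap list has the lowest median of those drawn in A/J, at -0.11, and Mmrn1 in the lymphatic list is the 1 filled point in C3H.

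Across the 18 group means, with each strain centred, the 10 genes varied together to different degrees. Pearson's r was highest between Tek and Cdh5, at 0.891, and lowest between Apln and Tie1, at -0.07. The group means share arrays and normalization across genes, so these values are descriptions. Over the same 18 means the genes outside the set whose pattern was most like the mean of the 10 were Ptprm, Vegfa, Nbea, Cadps2 and Pitpnc1, with r between 0.892 and 0.912. The closest single gene was Thra for Aplnr (r = 0.877), Msi2 for Tek (r = 0.901), Dgkh for Tie1 (r = 0.908), Fry for Ednrb (r = 0.847) and Afdn for Pecam1 (r = 0.930). For Cdh5 it was Dach1 (r = 0.898), for Flt1 Itsn2 (r = 0.888), for Car4 Fgfr2 (r = 0.870), for Apln Mtss2 (r = 0.827) and for Kdr Ltbp1 (r = 0.826).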

How the data were processed

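Affymetrix Mouse Gene 1.0 ST arrays measured lung RNA of the 36 samples. The authors deposited 1 linear intensity per probe set and array. The submitters' processing notes name PLIER and Affymetrix Expression Console. Versions, settings and genome build are not given in the sources used here. Array medians lay between 285 and 347 and maxima between 22074 and 62888, and an array gives no read depth, so the number of arrays limits the precision.

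The deposited intensities were turned to log2(intensity + 16), which understates changes of dim genes, and quantile-normalized. Of 35556 probe sets 21789 had 1 symbol, 1621 several and 12146 none in GEO's platform annotation. The Entrez IDs of 21698 were found in a RefSeq gene table, with 0 symbols changed. The brightest probe set of each gene was kept (each of the 10 genes had 1), and genes at or above the 25th percentile were tested with limma 3.58.1 in R 4.3.3, with 1 mean per group and 18 residual degrees of freedom. The NNK change is the mean of 4 weekly differences. Trends are linear over 9 weeks in NNK-treated and 12 in untreated lungs. The fit was tested on simulated data.

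The genes, the 29 lists of other genes and the comparisons were chosen with earlier results of these data known. Of each list the text names up to 3 genes with the smallest p in A/J and any called in C3H. No 2 arrays of a group held the same values: the median absolute log2 difference within a pair lay between 0.0804 and 0.212. Array numbers showed no general pairing of samples (correlations of deviations over 153 pairs of groups from -0.38 to 0.42, median 0.02, with 47 over 0.1). These values cannot exclude a batch shared by some groups. Alternatives were other scalings, filters, variance models and sample sets, each array left out in turn, and, chosen after seeing the data, leaving out week 3.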

Additional observations from a re-analysis of the deposited data

Results flagged for a closer look

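Outlying arrays were sought with Dixon's test in 40 sets of 8 arrays, each a gene in 1 strain and treatment over weeks 3 to 12, where chance alone marks about 1 in 20. Cdh5 stood at 13.09 in untreated A/J array 2 of week 9, against 13.21 in the nearest array. The Cdh5 change with NNK in A/J was -0.07 with all arrays, and lay between -0.09 and -0.04 over arrays left out in turn. Car4 stood at 12.56 in NNK-treated C3H array 1 of week 3, against 12.79 in the nearest array, and that array had the highest Saa3 level of the series, at 13.33. The Tie1 week trend of untreated lungs differed between the strains by 0.44, A/J minus C3H (adjusted p = 0.0453). The causes were not tested.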

How the results depend on the processing

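The counts of called genes among the 10 depended on processing as follows. For the NNK change in A/J (4 called), the count was 0 with median centring, 2 with array weights, 2 with each strain's own arrays, 0 without week 6 and 1 untreated week 0 array, and 2 to 4 when each array was left out, 2 without NNK array 2 of week 12. For the difference of untreated week trends (1), it was 0 without normalization, with median centring and without week 6, and 0 to 2 over arrays left out. For the trend in NNK-treated A/J (0), it was 1 with trended robust variances and with array weights, and 0 to 1 over arrays left out. For the trend in NNK-treated C3H (1), it was 0 with median centring and without week 3, 2 without week 6, and 0 to 2 over arrays left out. The 8 weekly comparisons gave 0 in every alternative run and 0 to 2 over arrays left out. The other 8 counts stayed the same or within 1.5 times. Mean changes that turned sign were small: Apln in A/J between -0.0339 and 0.0872 over arrays left out, Kdr, Flt1 and Car4 in A/J at 0.0262, 0.00951 and 0.0224 with median centring, Car4 at 0.000314 without week 6, and Kdr in C3H at 0.0126 without week 3. Tek in A/J was not called without normalization (adjusted p = 0.0551), with array weights (0.0683) or with median centring (0.168), nor Tie1 and Ednrb with their own strain's arrays (0.107 and 0.130). The Tie1 trend of untreated A/J and the Kdr and Ednrb strain differences were called in every setting. With the replicate block the counts of called genes were the same, 4 for the NNK change in A/J, and 1567 of all genes were called, against 1502 without the block. Over the alternatives other than arrays left out, the count of all genes called ranged from 483 to 2170 for NNK in A/J (1502 as reported; arrays left out 900 to 2963), 2 to 41 in C3H (12; 4 to 30), 5 to 225 for their difference (169; 49 to 1080), 0 to 31 and 0 to 1 for the trends of the NNK change (5 and 0; 2 to 23 and 0 to 70), 1415 to 5280 and 56 to 594 for the untreated trends in A/J and C3H (3410 and 129; 1765 to 4425 and 13 to 229), 59 to 329 for their difference (197; 43 to 796), and 97 to 762 and 2 to 170 for the trends in NNK-treated A/J and C3H (484 and 60; 144 to 605 and 1 to 291). For the weekly A/J comparisons it ranged from 7 to 69, 170 to 1629, 4 to 451 and 3 to 20 (53, 1087, 231 and 11), and for weekly C3H from 4 to 25 at week 3 and 1 to 127 at week 6 (14 and 2). Fits with 1 array left in a group assume that it varies like the others. The cause of these changes was not tested. All 10 genes were bright, so signal over background limits them less than the 2 arrays per group.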
